A study of Mus musculus with 30 samples.

Results

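The 8 genes described here belong to the PPAR-alpha programme of fat oxidation and ketogenesis: *Ppara*, *Cpt1a*, *Ehhadh*, *Acot1*, *Acot2*, *Pdk4*, *Fgf21* and *Vnn1*. They were taken by name from the 22180 genes that the array's annotation names through a probe set with a single symbol. All 8 were found, each with 1 probe set. Liver RNA of 30 male wild-type C57BL6/J mice, 6 in each of 5 groups, had been hybridised on arrays. All mice were 35 weeks old.

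Lean mice had eaten control diet (10.5% of energy as fat) for 27 weeks, and obese mice a high-fat diet (HFD, 58% of energy as fat) for the same 27 weeks. Formerly obese mice had eaten HFD for 20 weeks before a switch to control diet that lasted 7 weeks. Lean-HFD mice were kept like the lean mice and then given HFD for 48 h, and formerly obese-HFD mice were kept like the formerly obese mice and then given HFD for 48 h. Each sample was a whole liver extract, in which fewer cells of a type and less RNA per cell cannot be told apart.

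PPAR-alpha is a nuclear receptor that binds fatty acids and their derivatives and, together with the retinoid X receptor, switches on the genes by which hepatocytes burn fat. Fatty acids are coupled to coenzyme A, carried into mitochondria through the carnitine shuttle and shortened by beta-oxidation, while peroxisomes shorten very long chains. In fasting, the liver turns the acetyl-CoA so formed into ketone bodies for other organs. The programme is best known from fasting, and a fat-rich diet also supplies its ligands.

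Signals are given on the linear scale of the normalised arrays, fold changes as log2 values, and no gene's level is compared with that of another gene. A gene was called changed with a Benjamini-Hochberg adjusted *P* under 0.1 over all 41345 probe sets, a ratio of linear averages above 1.2, and 1 group or both averaging above 8. A looser criterion replaced the adjusted *P* by an unadjusted *P* under 0.01. The hepatocyte markers, 7 of 7 measured, summed to 21760 to 24650 in all livers, and *Alb* alone lay between 5619 and 6594. Of the 5 adipocyte markers, *Adipoq* (5.78 to 10.5), *Lep* (4.89 to 9.23) and *Retn* (5.99 to 10.7) stayed near or below the median probe set of an array, which was 9.8 to 10.4. *Plin1* (8.2 to 21.2) and *Cidea* (5.13 to 97.1) exceeded it in some livers.

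In livers of obese mice, 7 of the 8 genes had a higher mean signal than in lean mice, and *Fgf21* a lower one. *Acot1* rose and was the single member to pass the adjusted criterion, which 0.0895% of all probe sets met. *Ehhadh*, *Acot1* and *Vnn1*, 3 of 8, met the looser criterion against 2.01% of all probe sets. The median of the 8 log2 fold changes was 0.51, beside -0.01 over all probe sets. After 7 weeks back on control diet, 0 of 8 genes had an unadjusted limma *P* under 0.05 against lean mice. Of all 41345 probe sets 2428 did, and the 95% intervals were wide for *Vnn1* (-1.17 to 0.32) and *Fgf21* (-0.78 to 0.99). With 48 h of HFD none of the 8 was higher than before by either criterion.

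**Figure D1:**
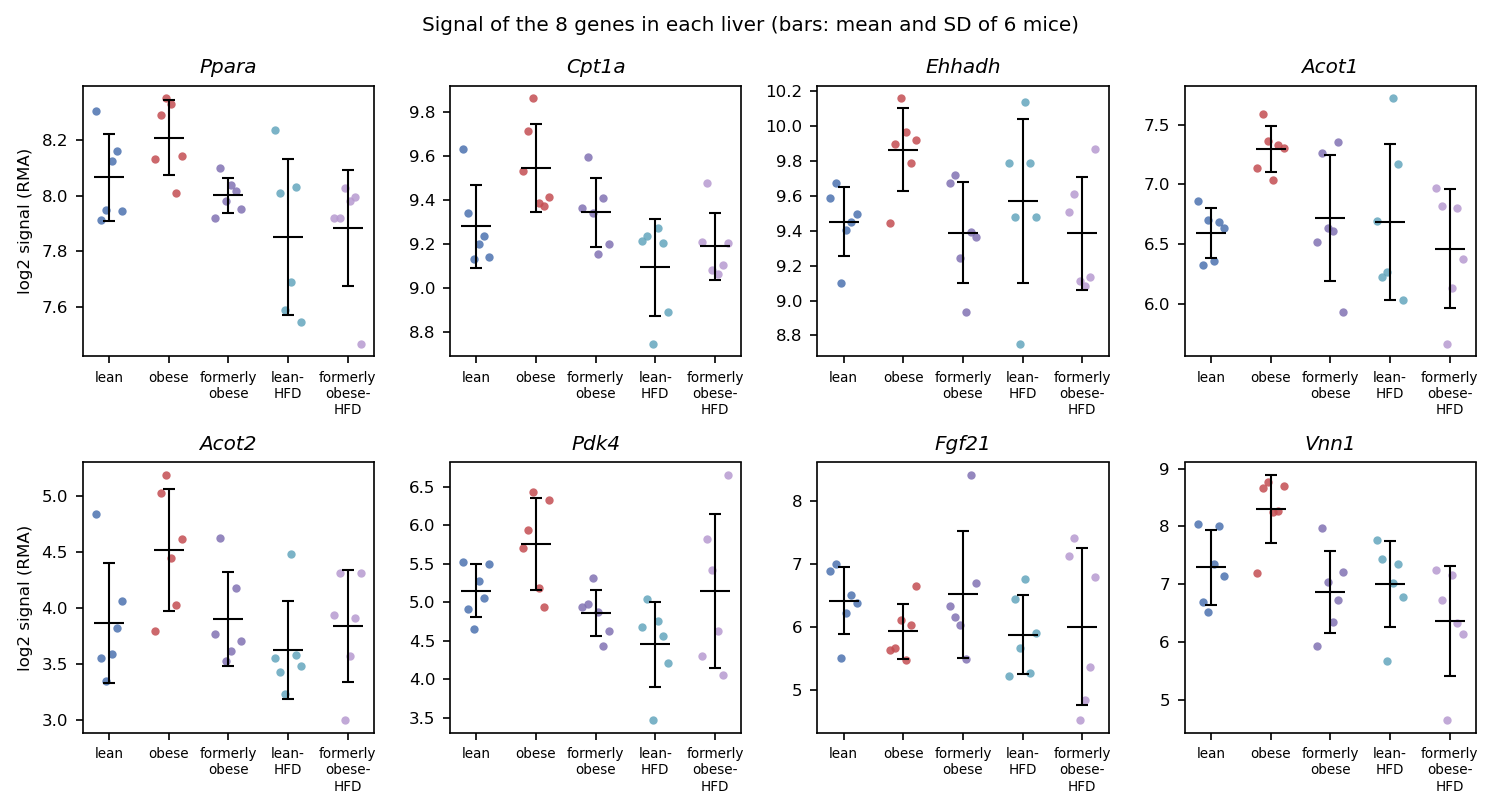
Log2 signal of each of the 8 genes (vertical axis, with its own range in each panel) in 6 livers of each of 5 groups (horizontal axis); points are single mice, and black bars give the mean and SD. The 6 obese livers lie above all 6 lean livers for *Acot1*, and 5 of 6 do so for *Ehhadh* and *Vnn1*.

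*Acot1* encodes a cytosolic thioesterase that splits long-chain acyl-CoA into fatty acid and coenzyme A. Its signal in lean livers ranged from 80.0 to 116 with a median of 101. In obese livers it ranged from 132 to 193 with a median of 159. The groups did not overlap, as was the case for 0.655% of all probe sets. The log2 fold change was 0.70 (SE 0.118, 6 mice per group), with limma *P*=4.71e-05, adjusted *P*=0.0799 and an exact two-sided permutation *P* of 0.00216, the smallest that 6 against 6 livers can give. The adjusted *P* lay close to the threshold, and with 1 liver left out it ranged from 0.0611 to 0.209, above 0.1 in 9 of 12 cases (lean replicates 2 to 6 and obese replicates 2, 3, 5 and 6). It was 0.412 when all 30 livers were fitted together. The other groups varied more: formerly obese livers spanned 60.9 to 163, lean-HFD livers 65.2 to 211 and formerly obese-HFD livers 50.6 to 125.

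*Acot2*, the mitochondrial counterpart, lies next to *Acot1* on chromosome 12, where the annotation orders the family as *Acot2*, *Acot1*, *Acot4*, *Acot3*, *Acot5* and *Acot6*. The signal of *Acot2* was low, from 10.2 to 28.6 (median 13.1) in lean and from 13.9 to 36.4 (median 23.1) in obese livers. Both groups overlapped, and only 2 of 6 obese livers exceeded the highest lean one. *Acot2* differed by 0.65 on the log2 scale (SE 0.278, exact permutation *P*=0.0693, limma *P*=0.0368, adjusted *P*=0.611). *Acot1* and *Acot2* are close paralogues, and it was not checked how far the probes of each also bind transcripts of the other.

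The promoters of both genes are shown because the pair is adjacent and varied together between livers. RefSeq (GRCm38.p6) places the 250 bases before the start of *Acot1* at chr12:84009252-84009501 and those of *Acot2* at chr12:83987611-83987860, both on the plus strand. Capitals mark the longest run that the windows share on the same strand, 9 bases. It begins 73 bases before the start of *Acot1* and 39 bases before that of *Acot2*. How often other pairs of windows share a run of this length was not counted, so it is given as a description only.

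Acot1: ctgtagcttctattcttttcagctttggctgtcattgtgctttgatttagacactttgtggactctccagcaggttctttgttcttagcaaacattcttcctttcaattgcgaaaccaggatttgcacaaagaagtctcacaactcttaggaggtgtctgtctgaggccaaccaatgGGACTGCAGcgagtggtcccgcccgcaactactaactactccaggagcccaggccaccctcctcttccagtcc

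Acot2: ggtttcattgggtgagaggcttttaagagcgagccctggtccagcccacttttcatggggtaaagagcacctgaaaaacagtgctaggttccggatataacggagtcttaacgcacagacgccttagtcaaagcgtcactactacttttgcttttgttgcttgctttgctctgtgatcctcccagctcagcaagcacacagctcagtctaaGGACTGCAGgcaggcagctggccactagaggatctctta

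The direct repeat with 1 spacer base that PPAR-alpha binds, searched as AGGTCANAGGTCA on both strands, was in neither window nor in those of *Ppara*, *Cpt1a*, *Ehhadh*, *Pdk4* and *Fgf21*, and in 0.0335% of 32851 promoter windows of the same length. The looser form AGGNCANAGGNCA was in 0 of the 7 windows and in 0.338% of all windows. No match says only that these letters are not in this window.

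*Ppara* itself, the receptor, had a signal of 241 to 316 (median 263) in lean and of 257 to 326 (median 298) in obese livers. Its log2 fold change of 0.14 did not pass (SE 0.0947, exact permutation *P*=0.104, limma *P*=0.155), and its 95% interval ran from -0.06 to 0.35. Means fell in the order obese (297 ± 27.2, SD), lean (269 ± 29.6), formerly obese (256 ± 11.4), formerly obese-HFD (238 ± 30.9) and lean-HFD (234 ± 46.0). No difference was called between formerly obese and lean mice (log2 fold change -0.06, 95% interval -0.24 to 0.11, exact permutation *P*=0.383). None was called between formerly obese-HFD and lean-HFD mice either (0.03, 95% interval -0.26 to 0.33, exact permutation *P*=0.814).

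*Cpt1a* encodes the outer mitochondrial carnitine palmitoyltransferase, which malonyl-CoA inhibits and which admits long-chain fatty acids to mitochondria. Its signal was 561 to 795 (median 597) in lean and 664 to 932 (median 711) in obese livers. All 6 obese livers exceeded the lean mean, and 2 exceeded the highest lean liver. Between both groups *Cpt1a* differed by 0.27 (log2 fold change, SE 0.115, exact permutation *P*=0.0455, limma *P*=0.0376, adjusted *P*=0.614). Lean-HFD livers had the lowest mean of the 5 groups (552 ± 79.2, SD) and ranged from 430 to 619, which put all of them below all obese livers.

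The *Cpt1a* window is shown as the single one of 7 with a nuclear receptor half-site, AGGTCA on either strand, which 14% of all windows hold. It lies at chr19:3323051-3323300 on the plus strand, and capitals mark the half-site, read on the opposite strand from 94 to 89 bases before the start.

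Cpt1a: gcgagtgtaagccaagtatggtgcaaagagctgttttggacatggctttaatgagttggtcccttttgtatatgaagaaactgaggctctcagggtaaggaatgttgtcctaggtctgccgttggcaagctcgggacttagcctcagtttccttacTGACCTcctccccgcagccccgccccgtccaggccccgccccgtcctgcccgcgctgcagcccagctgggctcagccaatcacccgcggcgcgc

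*Ehhadh* encodes the bifunctional enzyme that carries out 2 middle steps of peroxisomal beta-oxidation. Its signal was 548 to 819 (median 711) in lean and 697 to 1145 (median 962) in obese livers. Obese replicate 1 was the single obese liver within the lean range. The difference on the log2 scale was 0.41 (SE 0.126, exact permutation *P*=0.0130, limma *P*=0.00584, adjusted *P*=0.390). In lean-HFD livers the signal was spread from 431 to 1130, wider than in lean or obese mice, around a mean of 793 ± 234 (SD).

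*Pdk4* encodes a kinase that shuts off the pyruvate dehydrogenase complex and so spares glucose while fat is burnt. Its signal was 25.2 to 45.9 (median 36.0) in lean and 30.8 to 86.3 (median 56.8) in obese livers, and 4 of 6 obese livers exceeded the highest lean one. *Pdk4* differed by 0.60 on the log2 scale (SE 0.253, exact permutation *P*=0.0628, limma *P*=0.0326, adjusted *P*=0.599). After 48 h of HFD, lean-HFD livers ranged from 11.1 to 32.8 (median 24.7), and all lay below the lean mean. *Pdk4* was the single member with an unadjusted *P* under 0.05 in lean-HFD vs lean mice, at -0.70 (SE 0.238, exact permutation *P*=0.0216, limma *P*=0.0117, adjusted *P*=0.636).

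In formerly obese mice the same 48 h of HFD came with *Pdk4* signals from 16.6 to 101 (median 33.7), against 21.7 to 39.7 (median 29.9) without refeeding. Formerly obese-HFD replicates 2, 3 and 6 exceeded every formerly obese liver, and replicates 1 and 5 lay below all of them. The log2 fold change was 0.29 (SE 0.376, exact permutation *P*=0.537), and without replicate 6 it was -0.02. The difference between both refeeding responses, tested as an interaction in 24 livers, was 0.98 (SE 0.470, limma adjusted *P*=0.944) and did not pass.

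*Vnn1* encodes vanin-1, a pantetheinase that releases cysteamine and pantothenic acid in the turnover of coenzyme A. Its signal was 91.5 to 264 (median 152) in lean and 146 to 434 (median 355) in obese livers. The other 5 obese livers, from 304 upwards, exceeded all lean livers, whereas obese replicate 1 stood within the lean range. The log2 fold change was 1.01, the largest of the 8 (SE 0.316, exact permutation *P*=0.0195, limma *P*=0.00687, adjusted *P*=0.395).

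*Fgf21* encodes a hormone that the liver releases in fasting and under other nutritional stress. Its signal was 45.7 to 128 (median 87.0) in lean and 44.4 to 101 (median 58.1) in obese livers. On the log2 scale, the difference of -0.49 did not pass (SE 0.251, exact permutation *P*=0.119, limma *P*=0.0745). The highest liver of all 30 was formerly obese replicate 5 with 342, and the other 5 formerly obese livers lay between 45.2 and 104. In formerly obese-HFD mice the signals parted into 22.9, 28.7 and 41.3 in replicates 3, 4 and 5 and 111, 140 and 170 in replicates 6, 1 and 2.

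The *Fgf21* window is shown because *Fgf21* was the member that stood apart in direction. It lies at chr7:45615491-45615740 on the minus strand, and capitals mark, in this order, a C/EBP-ATF composite core and a TATA box. The core, TGATGNAAN, was found on the opposite strand from 140 to 132 bases before the start and is held by 3.44% of all windows. TATAAA, from 28 to 23 bases before the start, is held by 12.4%, and among the members' 7 windows both were in that of *Fgf21* alone.

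Fgf21: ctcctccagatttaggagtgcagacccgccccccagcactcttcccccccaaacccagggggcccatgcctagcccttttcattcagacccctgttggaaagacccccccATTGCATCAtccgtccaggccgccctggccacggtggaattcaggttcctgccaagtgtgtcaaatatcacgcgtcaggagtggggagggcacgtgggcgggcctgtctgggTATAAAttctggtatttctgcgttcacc

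Against obese mice, formerly obese mice had a lower mean for 7 of the 8 genes and a higher one for *Fgf21* (118 ± 111 vs 63.5 ± 20.7, SD, log2 fold change 0.59, exact permutation *P*=0.203). Without formerly obese replicate 5 this fold change of *Fgf21* was 0.21. None of the 8 passed the adjusted criterion in limma (0.189% of all probe sets did), 3 of 8 met the looser one (2.17%), and 6 of 8 had an unadjusted *P* under 0.05, as had 3524 of 41345 probe sets. This comparison shares the obese livers with that of obese and lean mice.

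*Vnn1* differed most: formerly obese livers ranged from 60.9 to 250 (median 118), and 4 of 6 lay below the lowest obese liver. The log2 fold change was -1.44 (SE 0.333, exact permutation *P*=0.00649, limma *P*=0.000827, adjusted *P*=0.168). The adjusted *P* fell to 0.0638 without obese replicate 1 and to 0.0544 without formerly obese replicate 2, the high liver of its group. *Pdk4* was lower by 0.90 on the log2 scale (SE 0.246, exact permutation *P*=0.0152, adjusted *P*=0.269) and *Ehhadh* by 0.48 (SE 0.145, exact permutation *P*=0.0130, adjusted *P*=0.341). For *Acot1* the difference was -0.58 (SE 0.207, exact permutation *P*=0.0303), with formerly obese replicates 2 and 5 at 154 and 163 within the obese range.

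Formerly obese and lean mice were the comparison that asks what a past of obesity leaves behind. By limma, 0 of 8 genes passed the adjusted criterion (0.0% of all probe sets) or the looser one (0.905%), and *P* ranged from 0.111 to 0.892, while 2428 of all probe sets had an unadjusted *P* under 0.05. Differences that a miss of the threshold leaves possible were bounded by the 95% intervals. For *Ppara* the interval was -0.24 to 0.11, for *Cpt1a* -0.16 to 0.29 and for *Ehhadh* -0.36 to 0.23. It was wider for *Acot1* (-0.33 to 0.58), *Acot2* (-0.50 to 0.57), *Pdk4* (-0.66 to 0.08), *Vnn1* (-1.17 to 0.32) and *Fgf21* (-0.78 to 0.99). For *Vnn1*, 4 of 6 formerly obese livers lay within the lean range.

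**Figure D2:**
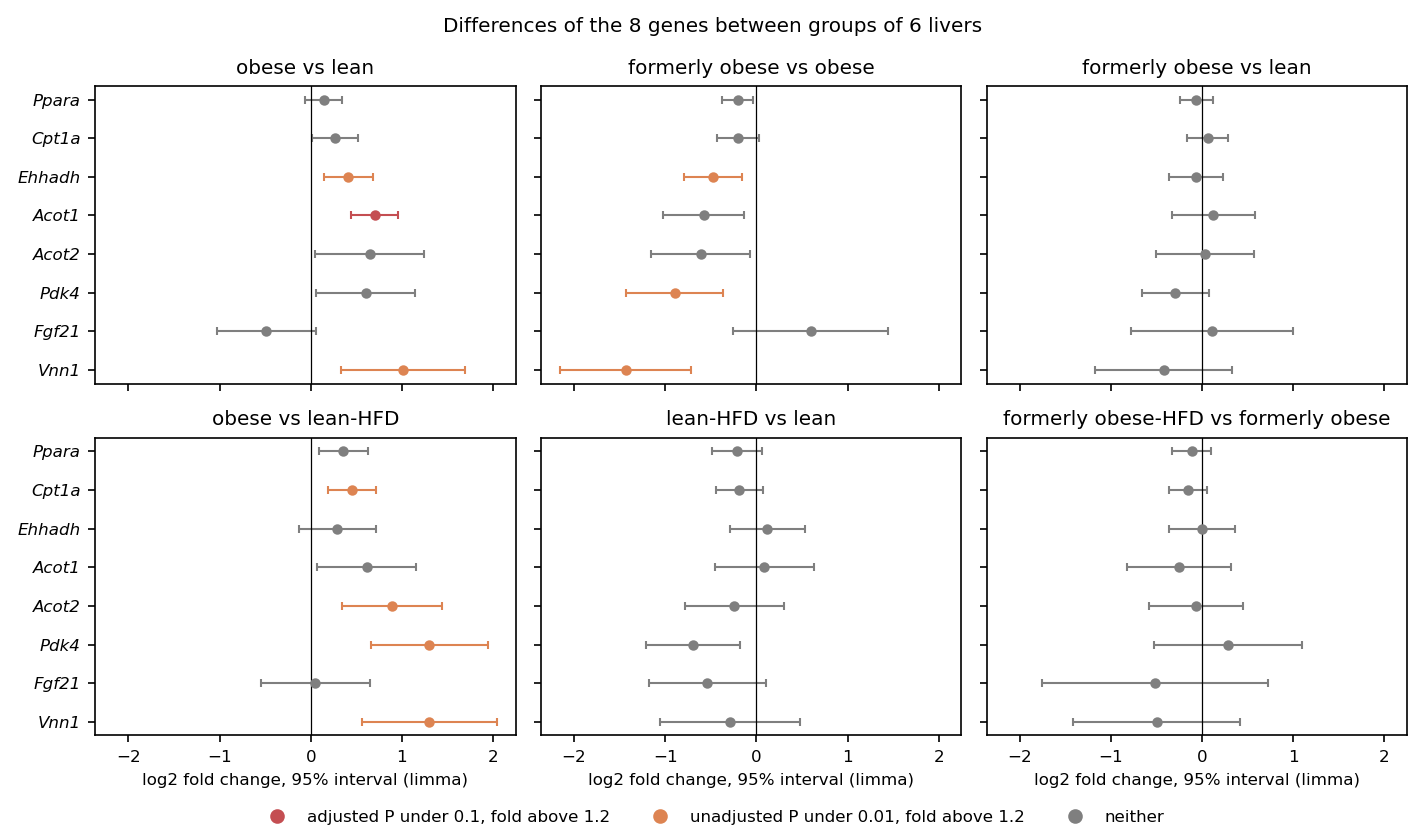
Log2 fold change from limma (horizontal axis) of the 8 genes (vertical axis) in 6 comparisons, with 95% intervals; red marks an adjusted *P* under 0.1, orange an unadjusted *P* under 0.01 and grey neither. *Acot1* in obese vs lean mice is the one red point, and all 8 intervals include 0 in formerly obese vs lean mice.

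Refeeding with HFD for 48 h called none of the 8 genes in either pair of groups. In lean-HFD vs lean mice, 0 of 8 genes passed in limma by the adjusted criterion (0.00726% of all probe sets) or the looser one (1.29%), and 1 of 8, *Pdk4*, had an unadjusted *P* under 0.05, as had 2660 of all probe sets. In formerly obese-HFD vs formerly obese mice, 0 of 8 passed either criterion (0.0242% and 1.18% of all probe sets), and none had an unadjusted *P* under 0.05, against 2469 of all probe sets. *Cpt1a* came closest, at -0.16 (SE 0.0981, exact permutation *P*=0.121, limma *P*=0.137). Between the refed groups, 0 of 8 passed either (0.0% and 0.914%), with *P* from 0.116 upwards and 2264 of all probe sets under 0.05. The interaction of history and refeeding called 0 of 8 (0.0%, and 0.716% at *P* under 0.01), and *Pdk4* was the 1 member among 2152 probe sets with an unadjusted *P* under 0.05.

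Long and short HFD feeding were set against each other directly in obese vs lean-HFD mice. These groups differ in obesity as well as in length of feeding, and the design cannot tell these apart. No member passed in limma by the adjusted criterion (0.353% of all probe sets), 4 of 8 met the looser one (2.73%), and 6 of 8 had an unadjusted *P* under 0.05, as had 3847 of all probe sets. *Cpt1a* did not overlap between the groups, as did not 0.98% of all probe sets, and its log2 difference was 0.45 (SE 0.121, exact permutation *P*=0.00216, limma *P*=0.00243, adjusted *P*=0.202). *Pdk4* was higher in obese livers by 1.30 (SE 0.296, exact permutation *P*=0.00433, adjusted *P*=0.128), and *Vnn1* by 1.30 as well (SE 0.341, exact permutation *P*=0.00866, adjusted *P*=0.192). *Acot2* was higher by 0.89 (SE 0.255, exact permutation *P*=0.0173, adjusted *P*=0.238). When all 30 livers were fitted together, *Cpt1a* and *Pdk4* passed with adjusted *P*=0.0625 and 0.0826.

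Markers of other liver cells moved with some of these groups, and their part in the results was not tested. The 6 stellate cell and fibroblast markers, all measured, summed to 892 to 1284 in lean, 1083 to 1542 in obese and 800 to 1022 in lean-HFD livers. *Dcn* had the largest part in this sum, at 603 to 1372 over all livers, and *Lrat* came next, at 66.8 to 209. In obese vs lean-HFD livers, 0 of the 6 were called in limma (0.353% of all probe sets). The 5 liver sinusoidal endothelium markers summed to 677.5 to 978 in lean, 738 to 995 in obese and 514 to 831 in lean-HFD livers. Of these 5, 1 was called higher in obese vs lean-HFD livers (0.179% of all probe sets). The 7 Kupffer cell and macrophage markers, all measured, summed to 542 to 851 in lean, 543 to 925 in obese, 678 to 1274 in formerly obese and 328 to 728 in lean-HFD livers. The 5 adipocyte markers summed to 42.2 to 59.9 in lean and 49.3 to 129 in obese livers, with *Cidea*, which fatty livers also express, at up to 97.1.

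Beyond the 8 genes, 108 others of the pathway were listed by role, and 95 had a probe set of their own symbol. In obese vs lean livers none of the 95 was called in limma. By the looser criterion 12 were higher and 3 lower, against 1.14% and 0.878% of all probe sets, and 27 had an unadjusted *P* under 0.05, as had 3222 of 41345 probe sets. Their median log2 fold change was 0.10. In formerly obese vs obese livers 1 was called higher and 3 lower, against 0.0847% and 0.104% of all probe sets. In formerly obese vs lean livers 0 met either criterion (0.0% and 0.905% of all probe sets), and 2 had an unadjusted *P* under 0.05, as had 2428 of 41345 probe sets.

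Peroxisomal beta-oxidation was the list with the most looser calls in obese vs lean mice. Of its 11 measured genes, *Ehhadh* included, 5 were higher by the looser criterion and 0 lower (1.14% and 0.878% of all probe sets), with a median of 0.31. In formerly obese vs obese mice 1 was called lower (0.104% of all probe sets). It was *Acox2*, the oxidase of branched chains and bile acid precursors. *Acox2* fell from 399 ± 21.7 (SD) in obese to 298 ± 15.6 in formerly obese livers (log2 fold change -0.42, SE 0.0691, adjusted *P*=0.0505, and at most 0.194 with 1 liver left out or another setting). The call was lost without obese replicate 2, 4 or 5 or formerly obese replicate 1, 3 or 4. *Pex11a*, which drives the division of peroxisomes, rose in obese vs lean-HFD livers from 158 ± 32.3 to 346 ± 78.5 (1.12, SE 0.171, adjusted *P*=0.0440), a call lost without lean-HFD replicate 3.

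Of 15 genes of mitochondrial beta-oxidation, all measured, 3 were higher in obese vs lean livers by the looser criterion (1.14% of all probe sets). None was called (0.0895%), and the median was 0.17. Of 10 measured genes of fatty acid activation and the carnitine shuttle, 1 was higher by the looser criterion (1.14% of all probe sets), with a median of 0.17. Of 5 measured genes of microsomal omega-oxidation, 1 was called lower in formerly obese vs obese mice, against 0.104% of all probe sets. This was the aldehyde dehydrogenase *Aldh3a2* (-0.60, SE 0.114, limma adjusted *P*=0.0875). Its call was lost in 10 of 12 cases with 1 liver left out, all but obese replicate 1 and formerly obese replicate 2. In obese vs lean-HFD livers 2 further genes were called higher, as were 0.179% of all probe sets. *Cd36*, a fatty acid transporter, was at 246 ± 158 in lean-HFD and 886 ± 202 in obese livers (2.08, SE 0.369, adjusted *P*=0.0532), and *Pank1*, which starts coenzyme A synthesis, differed by 0.49 (SE 0.0808, adjusted *P*=0.0491). The call of *Cd36* was lost without obese replicate 2, 3, 4 or 6 or lean-HFD replicate 3, 4, 5 or 6, and that of *Pank1* without obese replicate 2, 3 or 6 or lean-HFD replicate 3 or 5.

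Other lists had medians on either side of 0 in obese vs lean livers, and none of their genes was called (0.0895% of all probe sets were). The median was -0.10 for microsomal omega-oxidation (5 measured genes), -0.17 for the nuclear receptor and its cofactors (7) and -0.12 for ATF4 stress targets (9). It was -0.35 for *Fgf21* with its receptors and coreceptor (6), of which 1 was lower by the looser criterion (0.878% of all probe sets). That gene was the coreceptor *Klb* (-0.49, SE 0.114, adjusted *P*=0.210), named after its values were seen. The median was 0.17 for vanins and coenzyme A turnover (8), 0.19 for other PPAR-alpha targets (8), 0.10 for the pyruvate dehydrogenase switch (8) and -0.42 for malonyl-CoA control (3). By the looser criterion 2 of the other PPAR-alpha targets, 1 omega-oxidation gene and *Vnn1* were higher (1.14% of all probe sets). Lower were 1 ATF4 stress target and 1 gene of malonyl-CoA control (0.878%).

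**Figure D3:**
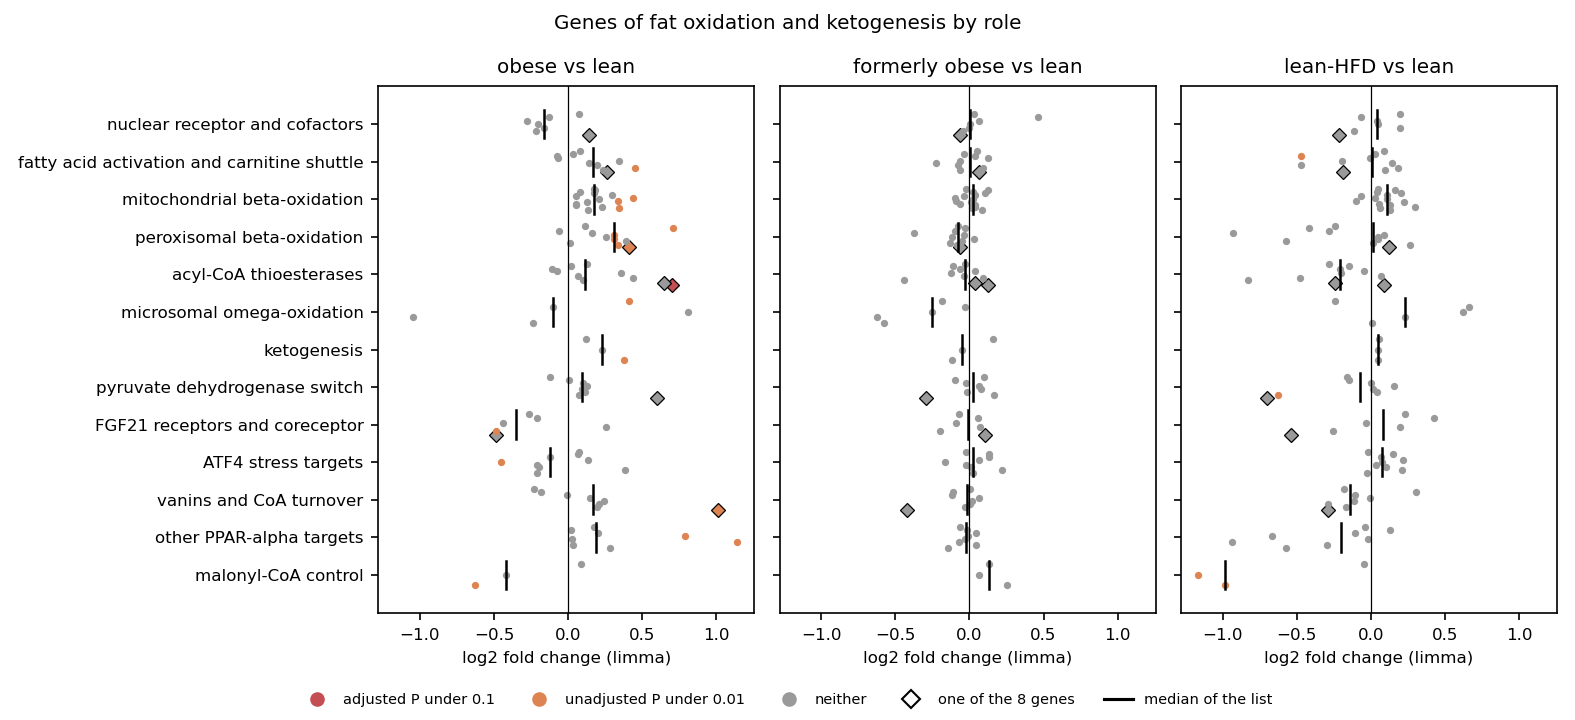
Log2 fold change from limma (horizontal axis) of each measured gene in the lists of the pathway (vertical axis) for obese vs lean, formerly obese vs lean and lean-HFD vs lean mice; diamonds are the 8 genes, bars the list medians, and colours mark the criteria met. The median of peroxisomal beta-oxidation is 0.31 in obese and -0.07 in formerly obese vs lean mice.

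Of the thioesterases, 10 of 11 were measured. *Acot1* alone was called in obese vs lean mice (0.0895% of all probe sets), and the median was 0.11. *Acot3* and *Acot4*, peroxisomal enzymes, differed from lean mice by 0.10 (adjusted *P*=0.965) and 0.44 (adjusted *P*=0.698) in obese livers and by -0.83 (adjusted *P*=0.640) and -0.48 (adjusted *P*=0.741) in lean-HFD livers, none of them called. In formerly obese-HFD vs formerly obese mice they were lower by 1.05 (SE 0.342, adjusted *P*=0.674) and 0.64 (SE 0.192, adjusted *P*=0.657), and met the looser criterion only. *Acot6* rose in obese vs lean-HFD livers by 0.56 (SE 0.0971, adjusted *P*=0.0513), at averages of only 8.75 and 5.91, below the median probe set. This call was lost without obese replicate 2, 3, 4 or 6 or lean-HFD replicate 3, 4 or 5.

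Of the ketogenesis list, 3 genes were analysed here. *Acat1*, the mitochondrial thiolase that joins acetyl-CoA units, was at 836 ± 73.3 in lean, 1084 ± 89.9 in obese and 769 ± 65.9 in formerly obese livers (SD). *Acat1* fell in formerly obese vs obese mice by 0.50 (SE 0.0843, adjusted *P*=0.0576), but the call was lost in 9 of 12 cases with 1 liver left out, all but obese replicate 1 and formerly obese replicates 2 and 6. In obese vs lean mice its log2 fold change of 0.38 met the looser criterion (SE 0.0876, adjusted *P*=0.210). *Bdh1*, which interconverts both main ketone bodies, differed by 0.23 in obese vs lean mice (adjusted *P*=0.659), and the exporter *Slc16a1* by 0.12 (adjusted *P*=0.886).

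After 48 h of HFD the mean of *Pdk4* was lower in lean mice and higher in formerly obese mice. The latter log2 difference, 0.29, was -0.02 without formerly obese-HFD replicate 6. For *Pdk1*, another pyruvate dehydrogenase kinase, the mean was lower in both. *Pdk1* was at 231 ± 50.3 in lean and 148 ± 18.8 in lean-HFD livers (-0.62, SE 0.141, adjusted *P*=0.385), and at 261 ± 56.9 in formerly obese and 154 ± 37.2 in formerly obese-HFD livers (-0.77, SE 0.187, adjusted *P*=0.485). Both differences of *Pdk1* met the looser criterion only. *Pdk2* differed by 0.04 (adjusted *P*=0.980) and -0.10 (adjusted *P*=0.945) in the same comparisons. *Pdk3* had averages of at most 6.87, under the minimum of 8.

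Malonyl-CoA is made by the carboxylases *Acaca* and *Acacb* and inhibits the enzyme encoded by *Cpt1a*. *Acaca* had means of 354 ± 63.5 (SD) in lean, 227 ± 26.9 in obese, 426 ± 101 in formerly obese, 180 ± 38 in lean-HFD and 174 ± 42.4 in formerly obese-HFD livers. The means of all 3 groups on HFD lay below those of both groups on control diet. *Acaca* rose in formerly obese vs obese mice by 0.88 (SE 0.144, adjusted *P*=0.0505) and fell in formerly obese-HFD vs formerly obese mice by 1.29 (SE 0.179, adjusted *P*=0.0675). The first call was lost without obese replicate 2, 4, 5 or 6 or formerly obese replicate 3 or 4, and the second in 9 of 12 cases, all but formerly obese replicate 1 and formerly obese-HFD replicates 2 and 6. In lean-HFD vs lean mice the difference of -0.99 met the looser criterion (SE 0.153, adjusted *P*=0.122), as did that of -0.63 in obese vs lean mice (SE 0.122, adjusted *P*=0.128). *Acacb* differed by -1.17 (SE 0.331, adjusted *P*=0.556) in lean-HFD vs lean mice and by -0.76 (SE 0.245, adjusted *P*=0.665) in formerly obese-HFD vs formerly obese mice, neither called. The decarboxylase *Mlycd*, which removes malonyl-CoA, differed by -0.04 (adjusted *P*=0.974) and -0.05 (adjusted *P*=0.959).

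The 8 genes differed in how much they varied between mice of a group. The pooled within-group SD of the log2 signal was 0.18 for *Ppara* and 0.19 for *Cpt1a*, below the median of 0.25 over the 27035 probe sets above an average of 8. It was 0.32 for *Ehhadh*, 0.46 for *Acot1*, 0.49 for *Acot2*, 0.61 for *Pdk4*, 0.74 for *Vnn1* and 0.83 for *Fgf21*, which exceeded 98.0% of those probe sets. From the lowest to the highest of 30 livers, *Vnn1* varied 17.4-fold, *Fgf21* 14.9-fold and *Ppara* 1.84-fold.

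Livers that were high for one member within their group tended to be high for other members. Over deviations from the group means in 30 livers, 27 of 28 pairs had a positive Pearson *r*, with a median of 0.46. A permutation *P* under 0.05 after Benjamini-Hochberg adjustment over the 28 pairs was found for 12. No such count was made for pairs of other genes, so whether these 28 pairs stand out was not tested. The closest pair was *Cpt1a* with *Acot2* (*r*=0.709, permutation *P*=7e-05, adjusted 0.00098; Spearman's rho 0.651, permutation *P*=0.00037, adjusted 0.00259). Without the 2 livers farthest from the median of *Cpt1a*, *r* was 0.652, and it was positive within 5 of 5 groups. *Acot1* with *Acot2* had *r*=0.658 (permutation *P*=5e-05, adjusted 0.00098) and rho 0.675 (permutation *P*=7e-05, adjusted 0.00098), and *r* was 0.531 without 2 livers.

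*Ppara*, the receptor, had *r* from -0.26 to 0.46 with the other 7 genes. *Ppara* with *Ehhadh* had *r*=0.07 (permutation *P*=0.796, adjusted 0.857; rho 0.06, permutation *P*=0.761, adjusted 0.761; *r*=0.20 without 2 livers). The one negative pair was *Ppara* with *Fgf21*, at *r*=-0.26 (permutation *P*=0.204, adjusted 0.286; rho -0.34, permutation *P*=0.0802, adjusted 0.118; *r*=-0.14 without 2 livers). *Acot1* and *Pdk4* shared next to nothing (*r*=0.03, permutation *P*=0.906, adjusted 0.939; rho 0.08, permutation *P*=0.700, adjusted 0.726; *r*=0.01 without 2 livers).

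**Figure D4:**
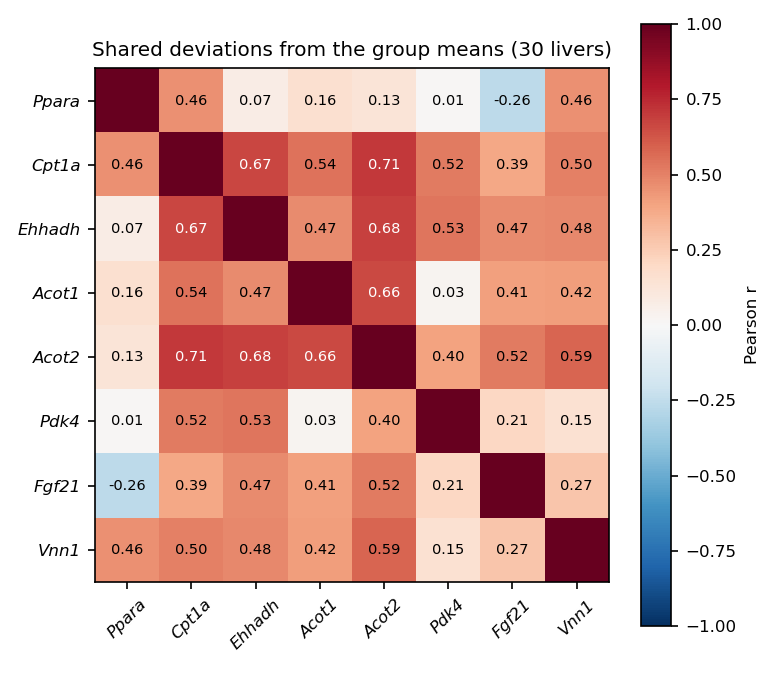
Pearson *r* between the 8 genes (both axes) of the deviations of log2 signals from the group means over 30 livers; red is positive and blue negative. The highest value is 0.71 (*Cpt1a* with *Acot2*) and the lowest -0.26 (*Ppara* with *Fgf21*).

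The genes whose deviations were most like those of each member, out of 15142 compared over 30 livers, are given as a description. For *Vnn1* they were *Acss3* (*r*=0.890), *Aldh1a1* (0.828) and *Pex11a* (0.828). For *Ehhadh* they were *Acadm*, the medium-chain acyl-CoA dehydrogenase (0.842), *Aldh3a2* (0.841) and *Cyp3a11* (0.815), and for *Cpt1a* *Psap* (0.842), *Pex19* (0.824) and *Abcc3* (0.817). *Acot1* had *Acot2* in the third place (0.658), after *Serpina6* (0.702) and *Mcmbp* (0.662). The nearest gene was *Bphl* for *Ppara* (0.790), *Igsf11* for *Acot2* (0.803), *Ppic* for *Pdk4* (0.806) and *Prrg4* for *Fgf21* (0.739).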

How the data were processed

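Liver RNA of 30 mice was measured on Affymetrix arrays of the Mouse Gene 2.0 ST design. Amplified cDNA from total RNA was hybridised, and the authors normalised the arrays by RMA in Affymetrix Expression Console (version 1.4.1.46), so that the deposited values are log2 signals per probe set, which shrinks differences of dim genes. Genome build and annotation release of the arrays were not given in the sources used here. Values lay between 1.24 and 13.7, and arrays correlated with *r* of 0.962 to 0.983. The number of mice, 6 per group, limits the precision.

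Probe sets were named through GEO's platform annotation: 23521 had 1 symbol, 1820 several and 16004 none. Entrez numbers were matched for 23328. Each gene was represented by its single-symbol probe set with the highest mean. limma (version 3.58.1, under R 4.3.3) was run on the 12 livers of a comparison, and on 24 for the interaction, with no covariate. Exact permutation tests were two-sided over 924 arrangements, and correlations used 100000 permutations. The fits were tested on simulated data for obese vs lean livers over 41345 probe sets: 52% of 1.5-fold and 76% of 2-fold changes were called, 100 probe sets each, as were 14 unchanged probe sets. Tables were prepared in Python 3.11.15 with pandas 2.3.3, NumPy 2.4.6 and SciPy 1.17.1, and figures in Matplotlib 3.10.9.

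The members, gene lists and criteria were chosen with earlier results of these data known. Named besides the 8 members were up to 3 called genes per list with the smallest *P*, the measured genes of the thioesterase, ketogenesis, pyruvate dehydrogenase kinase and malonyl-CoA lists, and for each member the genes of most similar deviation. As alternatives, all 30 livers were fitted jointly, and an intensity trend with robust prior was used, as were median-centred arrays, a filter on averages above 8 before adjustment, an unadjusted *P* under 0.01, a gene's mean over its probe sets, a replicate block and each liver left out. Of the marker lists, that of erythroid cells had no gene with a single-symbol probe set. Promoter windows came from RefSeq (GRCm38.p6) and matched 7 of 8 members.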

Additional observations from a re-analysis of the deposited data

Results flagged for a closer look

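In each of 40 groups of 6 livers (8 genes in 5 groups), the liver farthest from the others on the log2 scale was compared with Dixon's 95% critical value of 0.625, which chance exceeds in about 1 in 20 groups. This set 4 values apart. *Ppara* was at 177 in formerly obese-HFD replicate 6, and the other 5 livers of that group lay between 242 and 261. *Cpt1a* was at 713 in formerly obese-HFD replicate 2, against 536 to 592 in the others. *Acot2* was at 22.3 in lean-HFD replicate 4, against 9.40 to 12.0. *Vnn1* was at 146 in obese replicate 1, against 304 to 434, and without this liver *Vnn1* differed between formerly obese and obese mice with a limma adjusted *P*=0.0638. The log2 responses of *Pdk4* to 48 h of HFD in formerly obese and lean mice lay 0.98 apart (limma adjusted *P*=0.944). The unadjusted *P* was under 0.05, as it was for 2152 of 41345 probe sets. Without formerly obese-HFD replicate 6 the value was 0.68, and with 1 liver left out the unadjusted limma *P* reached 0.0982.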

How the results depend on the processing

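In obese vs lean mice 1 member was called, *Acot1*; 0 were with all 30 livers in a single fit (adjusted *P*=0.412), 0 with median-centred arrays (0.104), 0 with the replicate number as a block (0.303) and 3 at an unadjusted *P* under 0.01, and 0 to 1 with a liver left out. In formerly obese vs obese mice 0 were called, 1 with the replicate block (*Vnn1*, 0.0699), 3 at *P* under 0.01, 1 with a gene's mean over its probe sets (*Vnn1*, 0.0538) and 0 to 1 with a liver left out. In obese vs lean-HFD mice 0 were called, 2 with all 30 livers, 1 with the filter on averages (*Pdk4*, 0.0987), 4 at *P* under 0.01, 4 with the mean over probe sets and 0 to 1 with a liver left out (*Vnn1* without obese replicate 1, 0.0807; *Pdk4* without obese replicate 5, 0.0971). Each member has 1 probe set, so the mean leaves its fold change as it is and tests fewer features. The other 5 comparisons kept 0 called members under all settings.

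Direction was kept in all but 1 of 448 pairs of a value and an alternative: the *Fgf21* interaction (0.02) was -0.0062 with median-centred arrays. With a liver left out, 48 of 864 values turned, none of them called. In formerly obese vs lean mice the ranges were -0.135 to 0.0266 for *Ehhadh*, -0.0042 to 0.28 for *Acot1*, -0.11 to 0.23 for *Acot2* and -0.27 to 0.31 for *Fgf21*. In lean-HFD vs lean mice *Acot1* ranged from -0.12 to 0.22. In formerly obese-HFD vs formerly obese mice *Ehhadh* ranged from -0.098 to 0.0644, *Acot2* from -0.16 to 0.10 and *Pdk4* from -0.015 to 0.51. In formerly obese-HFD vs lean-HFD mice *Ppara* ranged from -0.0264 to 0.12 and *Fgf21* from -0.15 to 0.43, and in obese vs lean-HFD mice *Fgf21* from -0.0938 to 0.23. The interaction ranged from -0.0385 to 0.0819 for *Cpt1a*, -0.0153 to 0.35 for *Acot2*, -0.26 to 0.40 for *Fgf21* and -0.48 to 0.13 for *Vnn1*.

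Whether the replicate numbers pair the livers was not tested. The deviations of 60 same-numbered pairs correlated with a mean *r* of 0.02 (-0.12 to 0.13), and those of other pairs with -0.0041. Deviations were centred in each group, so these means depend on each other. With the block, called probe sets went from 37 to 4 in obese vs lean, 78 to 33 in formerly obese vs obese, 146 to 1 in obese vs lean-HFD, 10 to 2 in formerly obese-HFD vs formerly obese and 3 to 0 in lean-HFD vs lean mice. All 30 livers gave 46, 133, 313, 40 and 21 in that order, the intensity trend 58, 101, 202, 11 and 15, the filter 55, 107, 224, 11 and 4, median centring 21, 69, 150, 12 and 3, and the mean of probe sets 115, 235, 432, 17 and 29. The 9 calls of other pathway genes kept their direction throughout. With the block they were lost except *Acaca* in formerly obese vs obese mice, and with a liver left out they were lost in 1 (*Pex11a*) to 10 (*Aldh3a2*) of 12 cases. *Aldh3a2* was also lost with all 30 livers and with median centring. The causes were not tested.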
